A study of Mus musculus with 4 samples.

Results

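Genes of vitamin A handling were followed in single epithelial cells of the neonatal mouse small intestine: Scarb1, Bco1, Rbp2, Lrat, Dhrs3, Sdr16c5, Aldh1a1, Isx and Rarres1, which are 9 of the 32227 genes in the feature lists. The genes were chosen for their level by library, region and cell class in these same data, so those levels are given as a description and carry no test. Jejunum and ileum epithelium of 2 WT mice at postnatal day 6 (P6) gave 4 libraries, 1 for each region of each mouse, and every animal was untreated and of the same genotype. Replicate 1 of both regions came from the mouse labelled male in batch 1, and replicate 2 from the mouse labelled female in batch 2. Mouse, sex label and batch are therefore the same split and cannot be told apart.

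Vitamin A reaches the enterocyte, the absorptive cell of the villus, as carotenoids or as retinol. Scarb1 (a scavenger receptor) takes up carotenoids and Bco1 cleaves β-carotene to retinal. Rbp2 (cellular retinol-binding protein II) carries retinol and retinal in the cytoplasm, and Lrat esterifies retinol for packaging into chylomicrons. Between retinol and retinal, Sdr16c5 works as a dehydrogenase that oxidises retinol, and Dhrs3 reduces retinal back. Aldh1a1 oxidises retinal to retinoic acid, the ligand of nuclear receptors. Isx is an intestinal homeobox repressor of Bco1 and Scarb1, and Rarres1 is named for its induction by retinoic acid.

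Promoter sequence was available for 7 of the 9 genes, other than Scarb1 and Sdr16c5. The 2 promoters below are shown because they held the nuclear receptor half-site AGGTCA in the 250 bases before the start of the gene, which no other of the 7 genes did. They are RefSeq sequences on build GRCm38.p6, 5′ to 3′, and the capitals mark matches to AGGTCA or to the GATA motifs AGATAA and TGATAA on either strand.
Rbp2, chr9:98490287-98490536, plus strand: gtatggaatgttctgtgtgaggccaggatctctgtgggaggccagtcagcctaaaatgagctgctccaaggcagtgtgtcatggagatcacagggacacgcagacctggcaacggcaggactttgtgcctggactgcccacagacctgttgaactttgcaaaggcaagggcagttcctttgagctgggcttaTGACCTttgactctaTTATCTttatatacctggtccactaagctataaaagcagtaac
Bco1, chr8:117095615-117095864, plus strand: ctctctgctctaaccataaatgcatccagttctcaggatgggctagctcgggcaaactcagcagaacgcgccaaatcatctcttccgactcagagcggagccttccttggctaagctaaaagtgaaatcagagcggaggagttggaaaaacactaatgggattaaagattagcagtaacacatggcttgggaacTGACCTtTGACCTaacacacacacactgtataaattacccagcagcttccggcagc
In Bco1 a pair of half-sites, from 56 to 44 bases before the start, made a direct repeat with 1 base between (AGGTCANAGGTCA). Of 32851 promoters of the same length, 4607 held AGGTCA, 0.0335% held the repeat and 16.6% held a GATA motif. Rbp2 had its half-site 58 to 53 bases before the start and a GATA match 43 to 38 bases before it. Aldh1a1 had a GATA match too, in 1 of its 2 promoter entries. Dhrs3 held a CDX motif (GCAATAAA, also searched as GCCATAAA, GTAATAAA and GTCATAAA), as did 3.04% of promoters. The Dhrs3 match was in 1 of its 3 promoter entries. A match of letters describes these windows and is not a measured binding site.

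Libraries differed in ways that went with region. Ileal replicates 1 and 2 kept 7300 and 8502 cells, with medians of 12048 and 10916 UMIs (unique molecules) each and 3.61% and 3.74% mitochondrial UMIs. Jejunal replicates 1 and 2 kept 8997 and 5723 cells, with 4690 and 5884 UMIs and 6.37% and 9.94%. Xist was at 575 and 466 CPM (UMI counts scaled to 1 common total in every sum) in replicate 1 of ileum and jejunum, which the labels call male, and at 0.706 and 0.907 CPM in replicate 2, so the libraries went against their sex labels and no result here rests on sex. A single barcode was shared between the jejunal libraries and 1 between ileum and jejunum replicate 2. The enterocyte-like class held 6043 and 6667 ileal and 7591 and 4686 jejunal cells, and its 8 enterocyte markers summed to 12500 and 15150 CPM in the ileum against 25850 and 24830 CPM in the jejunum, with none at 0. Fewer molecules per cell and other levels in the same number of molecules are both held in these sums, so levels are given as CPM of the class and, where stated, at an equal 2000 UMIs per cell.

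Rbp2 separated the regions. In enterocyte-like cells it was at 715 and 826 CPM in the ileum against 3389 and 3682 CPM in the jejunum, a mean of 771 ± 78.7 against 3536 ± 207 CPM (SD, n = 2 each), 4.59-fold higher in the jejunum. Both jejunal libraries lay above both ileal ones. At 2000 UMIs per cell, 63.7% and 70.8% of ileal enterocyte-like cells held an Rbp2 molecule, against 99.7% and 99.8% in the jejunum (87.3%, 91.7%, 99.9% and 99.9% without thinning). The exact 95% intervals were 62.5% to 64.9% and 69.7% to 71.9% in the ileum, and from 99.6% to 99.9% over both jejunal libraries. The summed level at that depth was 1438 and 1727 UMIs per 1000 cells in the ileum against 7214 and 7982 in the jejunum. The difference was therefore also there at equal depth, while the enterocyte markers as a whole moved the same way and their part in it was not tested. Lrat, the esterifying enzyme, was at 67.2 and 83.8 CPM in the ileum against 156 and 151 CPM in the jejunum, a mean 2.03-fold higher in the jejunum. In the GENCODE annotation other gene models overlap 5 of the 9 genes, so their counts carry some uncertainty. On the same strand these are Gm37113 at Rbp2, Gm20694 at Bco1 and Gm42633 at Scarb1. On the opposite strand they are Rbm46os, a long RNA gene, at Lrat, and C730002L08Rik and Gm6684 at Aldh1a1. Whether the counting used strand is not given in the sources used here.

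**Figure D1:**
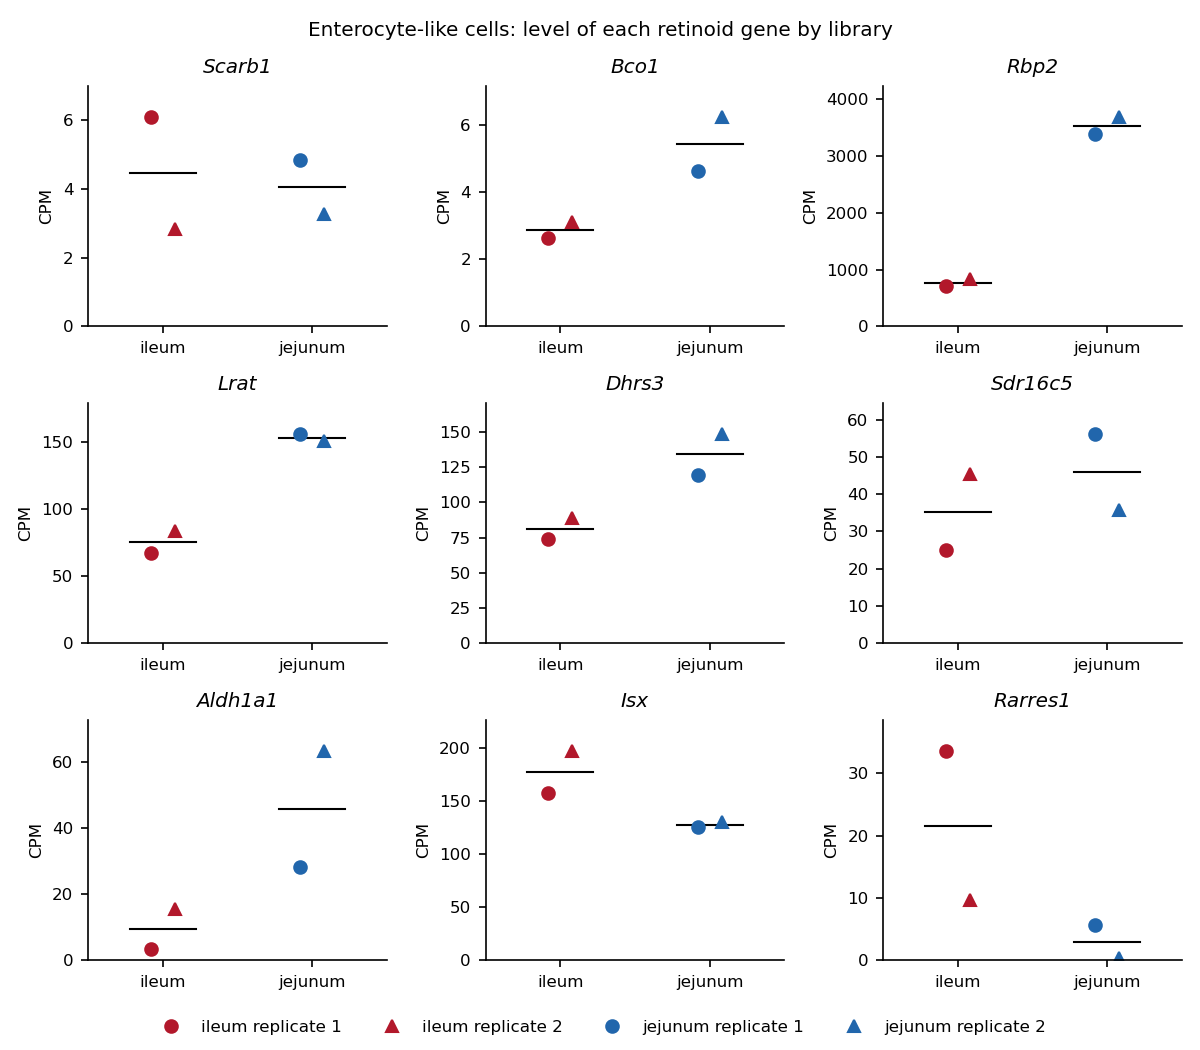
Level in CPM of the 9 genes in enterocyte-like cells, 1 point per library, with the mean of each region as a line; every axis starts at 0. Rbp2 lies at 715 and 826 CPM in the ileum against 3389 and 3682 CPM in the jejunum, whereas the regions overlap for Scarb1 and Sdr16c5.

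Of the retinal enzymes, Dhrs3 was at 73.7 and 89.0 CPM in the ileum against 120 and 148 CPM in the jejunum. Its groups did not overlap, and in each mouse the jejunum was higher. Sdr16c5 was at 25.1 and 45.4 CPM in the ileum against 56.0 and 35.8 CPM in the jejunum, and its groups overlapped. The sign of the regional difference for this gene was opposite in the 2 mice. Aldh1a1 was at 3.30 and 15.4 CPM in the ileum against 28.2 and 63.1 CPM in the jejunum. For this gene both jejunal libraries were higher than both ileal ones, but the mice also differed: replicate 2 was 4.67-fold above replicate 1 in the ileum and 2.23-fold above it in the jejunum.

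The genes of carotenoid entry were low in enterocyte-like cells. Bco1 was at 2.64 and 3.10 CPM in the ileum against 4.61 and 6.22 CPM in the jejunum, from 204 to 257 UMIs per library. Scarb1 was at 6.09 and 2.85 CPM in the ileum against 4.85 and 3.27 CPM in the jejunum, with overlapping groups. Their repressor Isx was at 158 and 197 CPM in the ileum against 125 and 130 CPM in the jejunum, a mean 1.39-fold higher in the ileum. Rarres1 was likewise the higher in the ileum, at 33.5 and 9.66 CPM against 5.62 and 0.350 CPM. Its order followed the mouse as well as the region, since replicate 1 was above replicate 2 in both regions, and the jejunum replicate 2 value came from 14 UMIs.

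In all, 7 of the 9 genes did not overlap between regions in enterocyte-like cells: Rbp2, Lrat, Dhrs3, Aldh1a1 and Bco1 with the jejunum higher, and Isx and Rarres1 with the ileum higher. Of the 19484 genes tested 62.3% did not overlap either, 38.3% with the ileum and 24% with the jejunum higher, so a lack of overlap is common here. In the edgeR fit over all genes, 2 of the 9 passed an adjusted p of 0.05 (Rbp2 and Lrat), beside 7.5% of 19484 genes tested (4.3% higher in the ileum, 3.2% in the jejunum), and 6 of 9 passed with the animal as a replicate block, under which 3512 genes in place of 1461 passed. Since the genes were picked on this contrast, nothing is read from these counts or from the tests behind them. The log2 fold change of ileum against jejunum was −2.32 ± 0.18 (SE) for Rbp2, −1.14 ± 0.18 for Lrat, −2.40 ± 0.79 for Aldh1a1, −1.04 ± 0.26 for Bco1 and −0.84 ± 0.20 for Dhrs3. It was −0.48 ± 0.35 for Sdr16c5, 0.00 ± 0.38 for Scarb1, 0.35 ± 0.18 for Isx and 2.71 ± 1.11 for Rarres1.

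Cell classes differed in which of the genes they held. Bco1 and Scarb1, low in enterocyte-like cells, were higher in enteroendocrine-like cells (hormone-secreting cells; 72, 71, 67 and 46 cells in ileum 1 and 2 and jejunum 1 and 2). There Bco1 was at 52.3 and 64.1 CPM in the ileum against 83.0 and 78.2 CPM in the jejunum, from 16, 18, 19 and 19 UMIs. At 2000 UMIs per cell, 12.7%, 13.4%, 15.3% and 11.1% of enteroendocrine-like cells held a Bco1 molecule (unthinned, 20.8%, 21.1%, 23.9% and 34.8%), whereas the upper 95% bound in enterocyte-like cells was at most 1.90% in any library. The exact 95% intervals of those shares ran from 5.96% to 22.7%, 6.33% to 24.0%, 7.22% to 27.0% and 3.71% to 24.1%, and cover counting error only. No Bco1 molecule was seen in the 53 immune-like cells, a class that should lack it, which allows a share of up to 5.66% of cells with a molecule at their depth. That limit concerns detection and sets no bound on cells expressing the gene. Every enteroendocrine-like value lay above every enterocyte-like one for this gene.

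Scarb1 in enteroendocrine-like cells was at 49.0 and 49.9 CPM in the ileum against 157 and 218 CPM in the jejunum, from 15, 14, 36 and 53 UMIs. The 2 regions did not overlap in that class, whereas they did in enterocyte-like cells. The share of all genes without overlap was not counted for this class. Its enteroendocrine markers were also higher in the jejunum, at 16290 and 19020 CPM in the ileum against 30780 and 21120 CPM. Their part in the Scarb1 values was not tested. Whether the regional difference of Scarb1 differed between the classes was not tested either. At 2000 UMIs per cell, 12.7% and 7.46% of ileal and 23.7% and 33.3% of jejunal enteroendocrine-like cells held a Scarb1 molecule, against 0.481% to 1.35% of enterocyte-like cells. The exact 95% intervals of the enteroendocrine-like shares were 5.96% to 22.7% and 2.47% to 16.6% in the ileum and 13.6% to 36.6% and 20.0% to 49.0% in the jejunum. Immune-like cells had 0, 5, 8 and 0 Scarb1 UMIs, so the few cells of that class are no firm background for it.

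**Figure D2:**
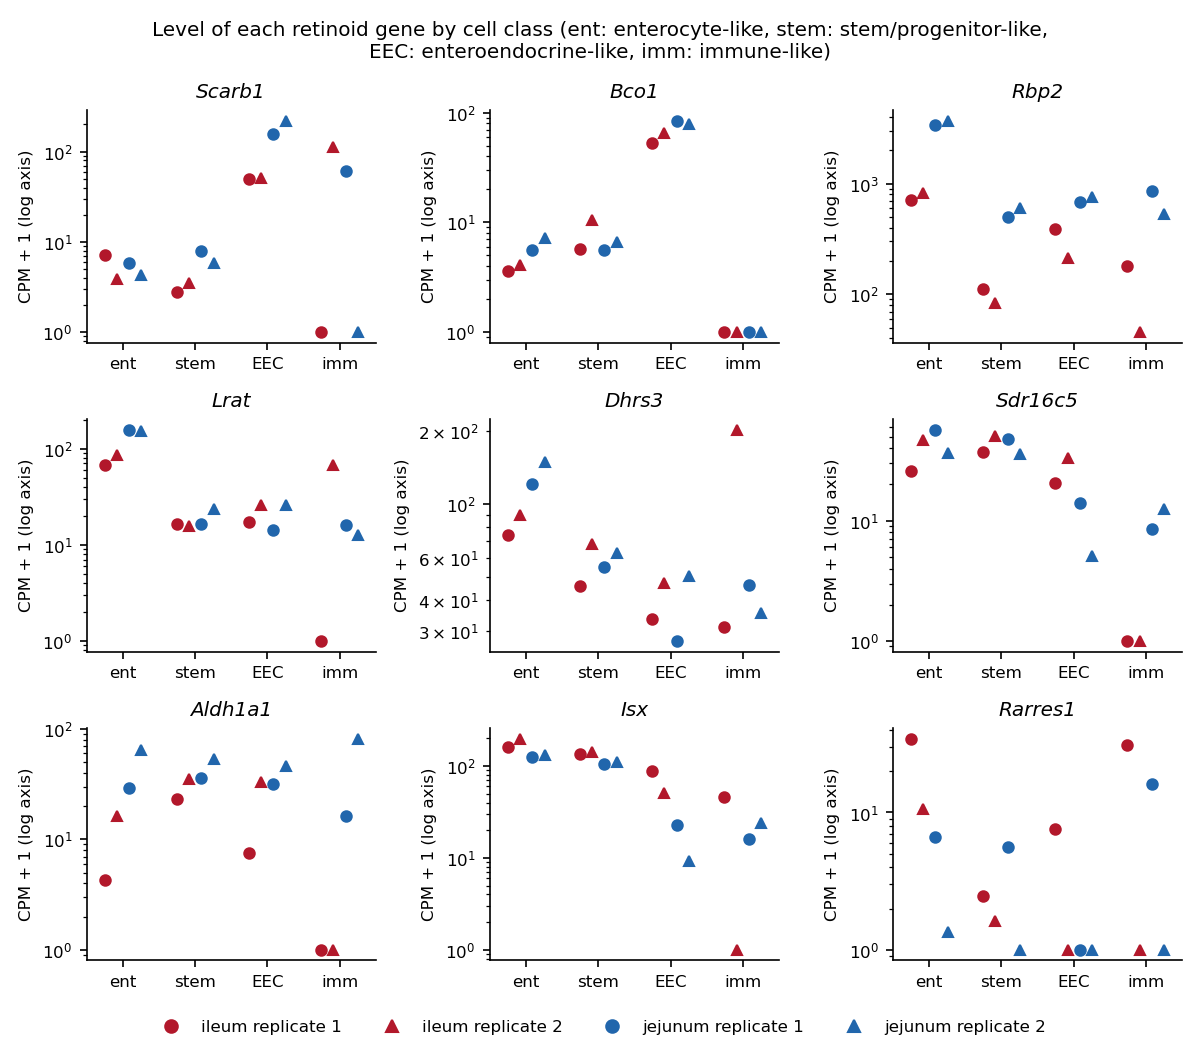
Level of the 9 genes by cell class on a log axis of CPM + 1, 1 point per library; immune-like cells number 9 to 19 per library, so single molecules set their points. Bco1 is at 52.3 to 83.0 CPM in enteroendocrine-like cells and at 2.64 to 6.22 CPM in enterocyte-like cells.

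Stem/progenitor-like cells (506, 524, 553 and 501 cells) held less Rbp2, Lrat and Dhrs3 than enterocyte-like cells of the same library. Rbp2 was at 110 and 82.8 CPM in ileal and 501 and 597 CPM in jejunal stem/progenitor-like cells. Immune-like cells, which should lack Rbp2, had 181, 44.7, 850 and 531 CPM, and at 2000 UMIs per cell 22.2%, 10.0%, 38.9% and 33.3% of them held a molecule, against 11.9%, 13.8%, 47.2% and 51.1% in the stem/progenitor-like class. The median depths of those classes were 7382, 3288, 5061 and 6273 UMIs and 5526, 4630, 4728 and 6017 UMIs. The share was above that of immune-like cells in 3 of the 4 libraries, but the immune-like cells were few and Rbp2 molecules were found in them, so no expression outside enterocyte-like cells is read from these values. Lrat was also lower there, at 14.5 to 22.5 CPM in the 4 libraries.

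The carotenoid genes were low in stem/progenitor-like cells as well. Bco1 was at 4.72 and 9.48 CPM in the ileum against 4.62 and 5.62 CPM in the jejunum, from 16 to 30 UMIs, above the enterocyte-like value in both ileal libraries and level with it in jejunum replicate 1. Scarb1 was at 1.77 and 2.53 CPM in the ileum against 6.93 and 4.81 CPM in the jejunum, from 6 to 24 UMIs, above the enterocyte-like value in both jejunal libraries and below it in both ileal ones.

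Sdr16c5 and Aldh1a1 did not follow the class order of Rbp2 and Lrat either. Isx did, being lower in stem/progenitor-like than in enterocyte-like cells of every library, but its higher region was the ileum. Isx was at 135 and 141 CPM in ileal and 103 and 109 CPM in jejunal stem/progenitor-like cells, and the ileum was the higher, as in enterocyte-like cells. In enteroendocrine-like cells it was lower in every library, at 88.2, 49.9, 21.9 and 8.24 CPM. Sdr16c5 was at 34.8 to 49.6 CPM in stem/progenitor-like cells, inside the enterocyte-like range of 25.1 to 56.0 CPM. Aldh1a1 was at 22.4 and 34.1 CPM in ileal and 35.2 and 52.2 CPM in jejunal stem/progenitor-like cells. In the ileum both of these values were above those of enterocyte-like cells of the same mouse, and in the jejunum the order of the classes was opposite in the 2 mice. Dhrs3 was at 44.8 to 67.6 CPM in stem/progenitor-like cells, below every enterocyte-like value. In the region fit on this class, 1 of 8 of the genes tested passed (Rbp2), beside 2.67% of 12945 genes (1.61% with the ileum higher, 1.06% lower). With the replicate block 2 did, in a fit where more of all genes passed too. The genes were chosen on these levels too, so these counts are given with nothing read from them.

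Position along the villus was not used to choose the genes, so an order of cells by villus genes could be tested. Within each library, enterocyte-like cells were ordered by 7 villus tip genes against 9 villus base genes, none of them a retinoid gene. The tip genes were Ada, Nt5e, Slc28a2, Klf4, Egfr, Creb3l3 and Apoa4. The base genes were Reg1, Reg3b, Reg3g, Ccl25, Nlrp6, Il18, Lypd8, Gsdmc4 and Agr2. Apoa4 was also among the genes most like Rbp2 in pattern over libraries and classes (Pearson's r = 0.979). The order of cells was therefore not free of genes that vary with Rbp2, and the part of Apoa4 was not tested. The highest tertile was compared with the lowest. Aldh1a1 and Sdr16c5 fell from the lowest to the highest tertile, whereas Lrat, Dhrs3, Scarb1 and Rarres1 rose. The rise of Rarres1 was mostly in the ileal libraries. The place of a cell on the villus was not measured. Of the 9 genes, 6 passed (4 higher, 2 lower), beside 28.6% of 16907 genes tested (14% higher and 14.6% lower).

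Aldh1a1 went from 5.28 CPM in the lowest to 2.08 CPM in the highest tertile in ileum replicate 1, and from 30.1 to 5.66 CPM in ileum replicate 2. In the jejunum it went from 54.2 to 9.66 CPM and from 120 to 20.1 CPM. It fell in each of the 4 libraries, by 2.31 ± 0.14 (SE) on the log2 scale with an adjusted p of 1.8e-05 in the edgeR quasi-likelihood test. Aldh1a7, a close copy of Aldh1a1 whose reads may be shared with it, fell by 2.47 ± 0.12. Sdr16c5 went from 38.1 to 12.8 CPM and from 74.9 to 21.9 CPM in the ileum, and from 80.8 to 34.9 CPM and from 51.4 to 23.7 CPM in the jejunum. The edgeR change was a fall by 1.37 ± 0.10 with an adjusted p of 3.6e-05, again in 4 of 4 libraries.

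Lrat rose in 4 of 4 libraries, from 43.0 to 89.5 CPM and from 62.5 to 101 CPM in the ileum and from 124 to 189 CPM and from 118 to 176 CPM in the jejunum. Its log2 change was 0.79 ± 0.08, with an adjusted p of 0.00014 in edgeR. RNA of the esterifying enzyme was thus higher and RNA of the retinal-oxidising enzyme lower in the same high tertile. The amounts of the enzymes were not measured. Dhrs3 rose by 0.25 ± 0.05 in 4 of 4 libraries (edgeR adjusted p = 0.0039), and Scarb1 by 0.56 ± 0.13 in 4 of 4 (0.012), though from 43 to 207 UMIs per tertile only. Scarb1 did not pass in 4 of 12 alternative settings, among them the fit without ileum replicate 1, although it rose in all 12 (0.43 to 0.95). Rarres1 rose by 0.87 ± 0.18 (0.0068), with 25.8 and 42.6 CPM in the lowest and highest tertile of ileum replicate 1 and 5.47 and 14.6 CPM in those of ileum replicate 2. In the jejunum this gene had 5.17 and 5.77 CPM in replicate 1, and 5 and 3 UMIs in replicate 2. Isx, at −0.01 ± 0.05, and Bco1, at −0.07 ± 0.17, did not pass in edgeR (adjusted p = 0.87 and 0.79). The log2 change of Bco1 was 0.15 and 0.26 in the ileal and −0.37 and −0.56 in the jejunal libraries.

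**Figure D3:**
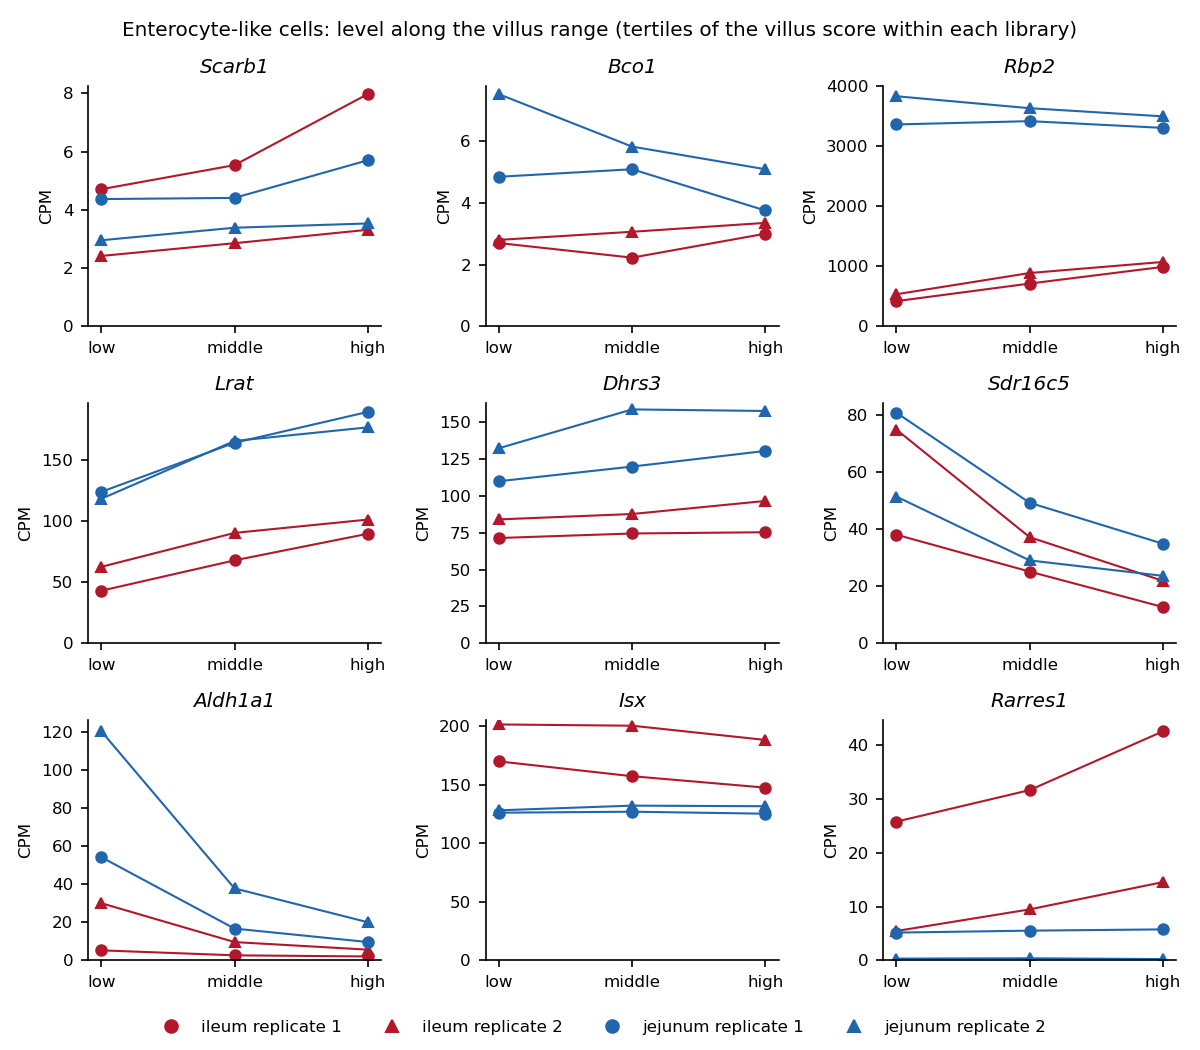
Level in CPM of the 9 genes in the lowest, middle and highest tertile of enterocyte-like cells by the villus score, 1 line per library; every axis starts at 0. Aldh1a1 and Sdr16c5 fall and Lrat rises in every library, while Rbp2 rises from 422 and 536 to 992 and 1075 CPM in the ileum and stays between 3310 and 3837 CPM in the jejunum.

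The change of Rbp2 along the villus range depended on region. In the ileum it went from 422 CPM in the lowest tertile through 715 to 992 CPM in the highest in replicate 1, and from 536 through 890 to 1075 CPM in replicate 2. In the jejunum it was 3367, 3422 and 3310 CPM in replicate 1 and 3837, 3638 and 3502 CPM in replicate 2. The log2 change was 1.24 and 1.00 in the ileal libraries and −0.02 and −0.13 in the jejunal ones. The difference between regions was 1.21 ± 0.08 with an adjusted p of 5.8e-05 in edgeR, and across the regions as a whole the change did not pass (0.57 ± 0.21, adjusted p = 0.078). Among all genes this interaction passed for 3.01% of 16907 (1.97% positive, 1.04% negative).

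Sdr16c5 was the other of the 9 genes with a regional difference along the villus range. Its fall was steeper in the ileum, by −1.58 and −1.77 on the log2 scale in the 2 libraries against −1.21 and −1.12 in the jejunum, a difference of −0.51 ± 0.11 (edgeR adjusted p = 0.026). It missed the threshold when any 1 of the 4 libraries was left out, with adjusted p-values from 0.055 to 0.20. The remaining genes did not pass, with differences of −0.16 ± 0.07 for Isx, −0.10 ± 0.08 for Dhrs3, 0.28 ± 0.11 for Lrat, 0.31 ± 0.25 for Scarb1, 0.42 ± 0.23 for Aldh1a1, 0.69 ± 0.25 for Bco1 and 0.86 ± 0.31 for Rarres1.

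**Figure D4:**
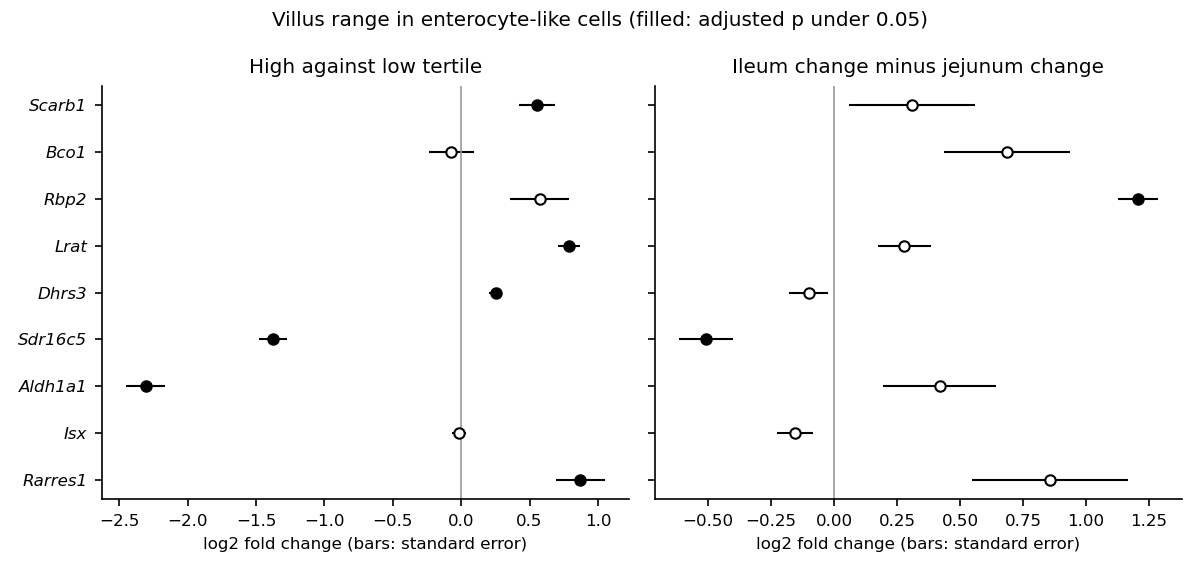
Log2 fold change of the highest against the lowest tertile (left) and its difference, ileum minus jejunum (right), for the 9 genes in enterocyte-like cells, with standard errors; filled points passed an adjusted p of 0.05. Aldh1a1 is at −2.31 and Lrat at 0.79 on the left, and Rbp2 at 1.21 on the right.

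The tertiles were cut within each library and may not mark the same place in both regions. The tip genes gave 8.45 and 10.1 UMIs per 2000 in the lowest and 22.4 and 22.6 in the highest tertile of the ileum. In the jejunum they gave 32.9 and 34.0 in the lowest and 46.2 and 50.6 in the highest tertile. The tip gene Apoa4 itself differed between regions in enterocyte-like cells, with a log2 of ileum minus jejunum of −1.645 and −1.66 in replicates 1 and 2. These counts therefore cannot tell villus place from the regional level of the tip genes. Base genes differed between regions too, with Reg3b at 2.97 and 3.02 and Reg3g at 3.44 and 0.730 on the same scale. Lypd8 was also higher in the ileum in both mice, whereas Gsdmc4 (−3.14 and −1.16), Nlrp6, Ccl25, Reg1 and Agr2 were lower. Il18 differed in sign between the mice. Reg3g and Reg3b were leading genes of the mostly ileal cluster in which ileal Rarres1 was highest. Their part in the order of cells was not tested. Of the marker lists, stem/progenitor markers summed to 216 to 263 CPM over the 4 lowest tertiles and 204 to 237 CPM over the 4 highest, and enteroendocrine markers to 25.9 to 38.3 and 46.1 to 54.5 CPM. Enterocyte markers were higher in the highest tertile of every library, at 10340 and 14620 CPM in the lowest and highest tertile of ileum replicate 1, 12530 and 17340 in ileum replicate 2, 23630 and 27580 in jejunum replicate 1 and 22500 and 26770 in jejunum replicate 2. Goblet markers went from 148 to 252 CPM and from 104 to 216 CPM in the ileal libraries, and from 68.5 to 81.1 CPM and from 62.2 to 67.6 CPM in the jejunal ones. Their part in the changes along the villus range was not tested. Without the library term, 3 of the 9 genes passed for the villus range (Aldh1a1, Sdr16c5 and Lrat) and none for the interaction.

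Other genes of the pathway were counted from a list of 55, of which 47 were tested in enterocyte-like cells. There 6 differed between regions, beside 7.5% of all genes, and the ileum was the higher for 4 and the jejunum for 2. With the replicate block 13 did, in a fit where more of all genes passed too. The median log2 fold change of the 47 was −0.13 against −0.01 over all genes. Among the 21 retinol and retinal oxidoreductases tested, Dhrs4 and Dhrs7 were higher in the jejunum and Rdh11 in the ileum, and 18 did not pass. Dhrs4 was at 57.7 and 63.3 CPM in the ileum against 99.3 and 118 CPM in the jejunum, and Dhrs7 at 17.2 and 19.6 against 34.5 and 33.8 CPM. Rdh11 had a mean of 26.5 ± 6.91 CPM (SD, n = 2) in the ileum against 6.54 ± 0.74 CPM in the jejunum. The log2 fold changes were −0.97 ± 0.17 for Dhrs4, −1.01 ± 0.16 for Dhrs7 and 1.89 ± 0.21 for Rdh11, with edgeR adjusted p-values of 0.035, 0.027 and 0.017.

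The other genes of the list that passed were low. The binding proteins Rbp4 and Fabp5, of 6 tested, were at 2.21 and 0.784 CPM and at 5.34 and 1.87 CPM in the ileum, and at no more than 0.370 CPM in the jejunum. The lipase Lpl, of 7 genes of uptake, hydrolysis and cleavage, was at 1.16 and 0.856 CPM in the ileum against 0.292 and 0.250 CPM in the jejunum. These 3 were named after their values were seen. Lpl did not pass in 7 of 13 alternative settings, and Rbp4 and Fabp5 in 3 of 13 each, although the sign was kept in all 13. None of the 2 esterification, 4 retinal dehydrogenase, 1 retinoic acid breakdown and 6 receptor genes tested passed in edgeR, although 2 of these 13 had an unadjusted p under 0.05. The count for the pathway was 10 with DESeq2, 2 without ileum replicate 1, 10 without jejunum replicate 1 and 1 without jejunum replicate 2. Rdh11 still passed without any 1 of the libraries, whereas Dhrs4 did not without ileum replicate 1 (adjusted p = 0.11), ileum replicate 2 (0.051) or jejunum replicate 2 (0.13), and Dhrs7 not without ileum replicate 1 (0.083) or jejunum replicate 2 (0.084).

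**Figure D5:**
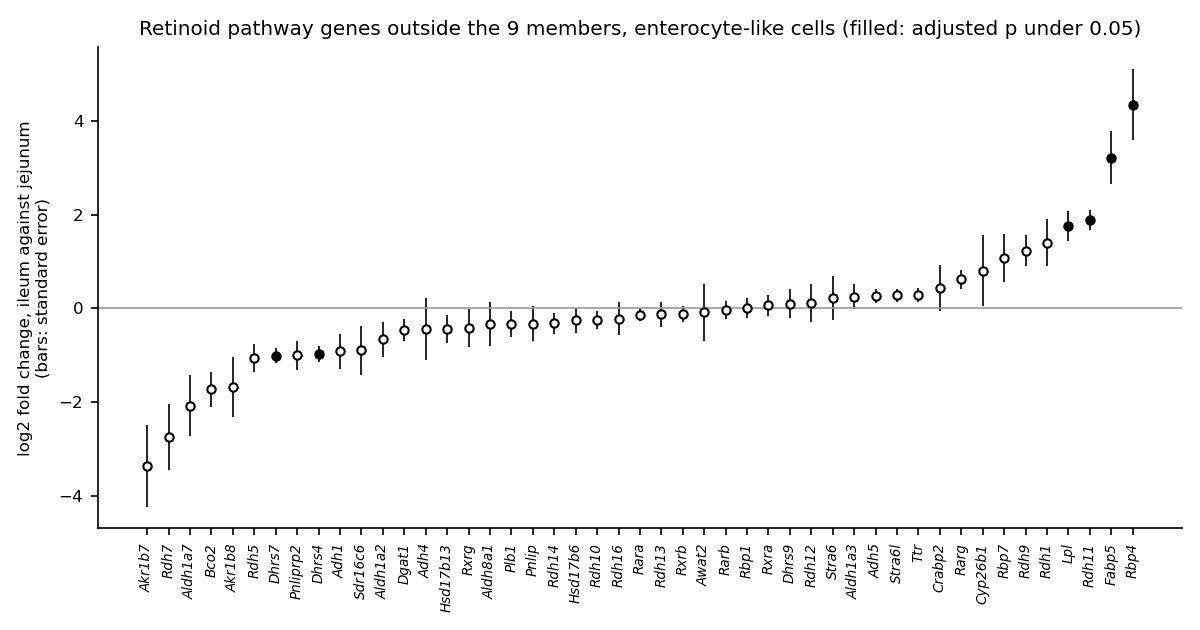
Log2 fold change of ileum against jejunum in enterocyte-like cells for the 47 pathway genes tested outside the 9 genes, with standard errors, in order of size; filled points passed an adjusted p of 0.05. The 6 that passed are Dhrs7 and Dhrs4 below 0 and Lpl, Rdh11, Fabp5 and Rbp4 above it.

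In stem/progenitor-like cells 2 of 25 pathway genes passed, beside 2.67% of all genes. With the replicate block 4 did, in a fit where more of all genes passed too. Dhrs4 was again the higher in the jejunum, at 98.2 and 85.3 CPM in the ileum against 148 and 184 CPM in the jejunum (−0.90 ± 0.16, edgeR adjusted p = 0.016). Rarg, a retinoic acid receptor, had a mean of 12.8 ± 0.20 CPM (SD, n = 2) in the ileum against 4.04 ± 0.42 CPM in the jejunum (1.62 ± 0.33, 0.033). Dhrs4 therefore differed the same way in both classes. Rarg was lost without ileum replicate 1 (edgeR adjusted p = 0.095), ileum replicate 2 (0.084) or jejunum replicate 2 (0.12), and Dhrs4 without ileum replicate 2 (0.059), where none of 27 pathway genes passed.

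Genes that respond to retinoic acid were listed separately. None of 7 passed in enterocyte-like cells in edgeR, with 1 at an unadjusted p under 0.05 and 1 passing in DESeq2, and none of 4 in stem/progenitor-like cells, with 2 and 1. Of 8 intestinal transcription factors, Gata4 and Nr0b2 were higher in jejunal enterocyte-like cells. Gata4, a factor of the proximal intestine, was at 31.9 and 49.1 CPM in the ileum against 107 and 101 CPM in the jejunum (−1.47 ± 0.25, edgeR adjusted p = 0.032, and 0.066 without jejunum replicate 2). In stem/progenitor-like cells it was at 33.9 and 53.4 against 174 and 191 CPM (−2.11 ± 0.21, 0.0018). Nr0b2, a bile acid-responsive nuclear receptor, was at 6.33 and 11.7 against 47.6 and 74.2 CPM in enterocyte-like cells (−2.87 ± 0.40, 0.025).

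Along the villus range 15 of 39 pathway genes passed, 5 higher and 10 lower in the highest tertile, beside 28.6% of all genes. The 10 lower ones held 7 of 19 oxidoreductases tested. The following were named after their values were seen. The enzymes Rdh7 and Bco2, the latter a carotenoid oxygenase, fell by 1.89 ± 0.20 and by 1.62 ± 0.10 on the log2 scale, with edgeR adjusted p-values of 0.00018 and 1.9e-05. Rdh7 is one of a cluster of similar Rdh genes, so its reads may be shared. Tgm2, a retinoic acid response gene, fell by 2.32 ± 0.17 (3.2e-05) and the receptor gene Rarb by 0.39 ± 0.08 (0.0085), the 2 that passed of 4 response genes tested. Upwards, the retinol transport genes Ttr and Stra6l rose by 0.86 ± 0.06 and 0.45 ± 0.04 (2.6e-05 and 9.8e-05). The other 3 of the 5 higher genes were the receptor gene Rarg, the oxidoreductase Dhrs9 and Pnliprp2, which rose by 0.66, 0.61 and 0.80. Of 6 receptor genes tested, 1 therefore passed as higher and 1 as lower. In the interaction with region none of the 39 passed in edgeR or DESeq2, with 8 and 3 at an unadjusted p under 0.05.

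The genes most like each of the 9 in pattern were ranked by Pearson's r of log2(CPM + 5) over 12 sums, those of 4 libraries in the enterocyte-like, stem/progenitor-like and enteroendocrine-like classes, among 10290 genes. The sums share libraries and depth, and r is a description. Rbp2 was nearest to Fcgrt (0.986), Apoa4 (0.979) and Apoc2 (0.972), the neonatal Fc receptor and apolipoprotein genes. Lrat was nearest to P4hb (0.985), Cideb (0.983) and Exoc3l4 (0.975). Bco1, highest in enteroendocrine-like cells, was nearest to Camk2b (0.993), Olfm1 (0.992) and Celf3 (0.992), and Scarb1 to Sstr1 (0.988), Wscd1 (0.986) and Dbn1 (0.985).

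For Dhrs3 the nearest genes were Mxra7 (0.976), Sec13 (0.971) and Dgat1 (0.964). Sdr16c5 was nearest to Eci1 (0.919), Bfsp1 (0.917) and Rab25 (0.914), and Isx to Eppk1 (0.985), Aamdc (0.977) and Clic6 (0.967). Aldh1a1 was nearest to Pnpla2 (0.95), Tm4sf5 (0.905) and Tmem259 (0.862), and Rarres1 to Gulp1 (0.918), Zfp984 (0.900) and Trpm7 (0.891).

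Within the enterocyte-like class the genes also varied among the clusters, which were built from all genes, so this is a description. Aldh1a1 ranged from 3.65 to 242 CPM over the clusters of at least 20 cells in jejunum replicate 2, and its highest value in each library was in a cluster that it also helped to define. Sdr16c5 was highest in the same cluster in all 4 libraries, at 72.1, 118, 145 and 101 CPM. Isx varied less, from 90.8 to 168 CPM in jejunum replicate 2 and from 114 to 202 CPM in ileum replicate 1. Rarres1 reached 80.6 and 31.2 CPM in a cluster found almost only in the ileum, of which it is a leading gene.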

How the data were processed

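Single cells of P6 jejunum and ileum epithelium were captured by PIPseq, and the authors deposited UMI counts per gene and called cell, made with PIPseeker at sensitivity level 3; the submitters' processing notes name build GRCm39. Genes in at least 3 cells, and cells with over 1000 and under 6000 genes and under 20% mitochondrial UMIs, were kept (30522 of 36202 cells). Scrublet (scanpy 1.11.5) marked 1 to 3 kept cells per library, so it did not work as a doublet filter and no cell was removed.

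Cells were integrated and clustered in Seurat 5.3.0 (2000 variable genes, CCA, 30 components, resolution 1, 23 clusters) and named from marker lists. A class name needed 3 markers of that class. The clusters of the unnamed class, 667 to 1226 cells in the ileum and 471 to 758 in the jejunum, entered no class. Depth is the number of UMIs per cell, and equal-depth values come from thinning each cell to 2000 UMIs, which left out 41 to 610 shallower enterocyte-like cells per library.

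Sums of UMIs over the cells of a class in each library were tested with the quasi-likelihood test of edgeR 4.0.16 (TMM, filterByExpr, Benjamini-Hochberg over all genes, threshold 0.05) with region as the only term. The villus score was the mean standardized level of 7 tip genes minus that of 9 base genes in thinned cells. Its tertiles were tested with library as a block, and 903 to 1292 cells per library lay within 0.1 SD of a limit between tertiles. Replicate 1 of both regions is 1 mouse and replicate 2 the other, as the series design states, and deviations from the region means of the same-numbered libraries correlated (0.29 in enterocyte-like, 0.21 in stem/progenitor-like sums), so the animal as a replicate block was an alternative. DESeq2 1.42.0 was another. The fits were tested on simulated data. Changes of 1 on the log2 scale were recovered for 69% and 65% of genes in the enterocyte-like and stem/progenitor-like region fits. They were recovered for 97% along the villus range and for 34% in the interaction. Changes of 2 were recovered for 100% in the first 3 fits and 94% in the interaction. A gene that did not pass, above all in the interaction, may therefore still differ. Named genes are the 9 genes, the listed genes that passed in a region fit with at least 5 CPM in the higher region, and the 3 nearest genes of each; any other was named after its values were seen. The genes and lists were chosen with earlier results of these data known. Promoters are from RefSeq on GRCm38.p6, so no coordinate was joined to the counts.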

Additional observations from a re-analysis of the deposited data

Results flagged for a closer look

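The change of Rbp2 from the lowest to the highest tertile of the villus range differed between ileum and jejunum by 1.21 on the log2 scale, with the ileal change the higher. The change of Sdr16c5 differed by −0.51, with the ileal fall the steeper. Both differences were tested as an interaction term in edgeR over 4 libraries. Each was picked out because the change from the lowest to the highest tertile differed between the 2 regions. The tertiles were cut within each library and may not mark the same place in both regions. The lowest jejunal tertiles held 32.9 and 34.0 UMIs of tip genes per 2000, above the 22.4 and 22.6 of the highest ileal ones. Under alternative settings the Rbp2 difference still passed in 11 of 12, and the Sdr16c5 difference in only 3 of 12.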

How the results depend on the processing

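Each region has 2 libraries, and depth limits the genes under about 5 CPM, such as Bco1 and Scarb1 in enterocyte-like cells, most. In enterocyte-like cells 1461 genes differed between regions, 3039 with DESeq2, 1 without a count filter, 3512 with the replicate block and 407 to 1574 with 1 library left out. Pathway genes numbered 6, and then 10, 0, 13 and 1 to 10. In stem/progenitor-like cells 346 genes passed, 921 without a filter, 1090 with the replicate block, 189 when thinned and 227 to 768 with 1 library left out. Of the pathway 2 passed there, 1 with DESeq2, 4 with the replicate block, 1 when thinned and 0 to 4 with 1 library left out. Along the villus range 4834 genes passed, 1243 with no replicate block, 3143 when thinned and 3027 to 4287 with 1 library left out. Pathway genes numbered 15, and 6 with no replicate block, 7 when thinned and 23 with the ribosomal share as the score, and of the 9 genes 6 passed, or 3 with no replicate block. For the interaction 509 genes passed, 272 with DESeq2, 1124 without a filter, 0 with no replicate block, 308 when thinned and 140 to 219 with 1 library left out. Of the 9 genes 2 passed, 1 with DESeq2, 4 without a filter, 0 with no replicate block, 1 when thinned, 1 with 2 equal groups of cells in place of tertiles and 1 with any library left out. The sign turned in values near 0: for the villus change of Bco1 with 1 library left out (−0.21 to 0.078, above 0 without either jejunal library) and when thinned (0.067), for that of Isx with 1 library left out (−0.047 to 0.028, above 0 without ileum replicate 1), when thinned (0.039), with the score from all counts (0.015) and with tip genes only (0.022), and for the Dhrs3 interaction when thinned (0.013). Among regional differences far from the threshold, the sign was kept in 6 of 13 alternatives for Scarb1 in enterocyte-like cells (−0.58 to 0.42), and in stem/progenitor-like cells in 8 of 12 for Sdr16c5 (−0.25 to 0.27), 9 of 12 for Dhrs3 (−0.43 to 0.21) and 10 of 11 for Bco1 (−0.19 to 0.87). The cause of these shifts was not tested. Rbp2 kept its interaction in 11 of 12 alternatives. Adding the unnamed enterocyte-marker clusters, an alternative chosen after seeing the data, gave 1356 genes.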
